A study of Mus musculus with 18 samples.

Results

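The genes of the proteasome and the immunoproteasome were followed across 6 conditions in RAW 264.7 cells, a mouse macrophage line. Members were all protein-coding genes whose symbol begins with Psma, Psmb, Psmc, Psmd or Psme followed by a digit, which gave 46 of the 56748 genes listed, and 45 of the 46 passed the filter on low counts. RNA was sequenced in 18 libraries, 3 for each condition, which the methods call biological replicates. Whether the 3 came from separate experiments is not stated, so the standard errors and tests below measure the spread between these libraries only. The conditions were untreated control cells, TBHQ (tert-butylhydroquinone, an antioxidant food additive) alone at 5 µM for 4 h, LPS (lipopolysaccharide, a bacterial cell wall component) at 0.1 µg/mL for 12 h, PIC (polyinosinic-polycytidylic acid, a synthetic double-stranded RNA) at 20 µg/mL for 12 h, and LPS or PIC for 12 h after TBHQ for 4 h, written LPS + TBHQ and PIC + TBHQ. The samples are labelled as control and the paper describes these cells as untreated, so TBHQ and the liquid it was added in cannot be told apart. Time in culture and treatment cannot be told apart either, since the groups differ in the hours of treatment.

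The proteasome is the protease that degrades most ubiquitin-tagged proteins of the cell. Its barrel-shaped 20S core is built of alpha and beta rings, and the catalytic sites lie on the beta subunits encoded by Psmb5, Psmb6 and Psmb7, while the 19S cap recognizes, unfolds and feeds in the substrate. In immune cells and under interferon, newly built cores take up Psmb8 (LMP7), Psmb9 (LMP2) and Psmb10 (MECL-1) in place of Psmb5, Psmb6 and Psmb7, and the PA28 ring of Psme1 and Psme2 can replace the cap. This immunoproteasome yields peptides suited to MHC class I presentation.

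Depth was 14423390 to 18851626 counts per library, and the 46 genes together took up 0.717% to 0.788% of the counts. A floor of 3 counts corresponds to 0.159 to 0.208 CPM (counts scaled to the library total), and it covers counting error only. Macrophage markers were present in every library, from a median of 7.45 FPKM (fragments per kilobase, scaled to the library total and to a further constant per library) for Fcgr1 to 4056 FPKM for Lyz2, all 9 of 9 listed markers being tested. Single macrophage markers moved in both directions, such as Fcgr1 with TBHQ alone (−1.28 ± 0.07, FDR 7.94e-15) and Adgre1 with PIC (1.86 ± 0.06, FDR 2.75e-27), named after their values were seen. Summed over the 9 markers, of which Lyz2 has the highest level, FPKM was 6747, 6823 and 6406 in the control, 6043, 6110 and 6046 with TBHQ, 6121, 5907 and 6235 with LPS, and 6206, 6344 and 6422 with PIC. It was 6665, 6896 and 6812 in LPS + TBHQ and 6773, 6478 and 6858 in PIC + TBHQ. The TBHQ and LPS libraries lay below the control, PIC overlapped with it, and each combined group lay above its stimulus alone. With the constant divided out the PIC sums were 5581, 5687 and 5769, below the control (7094, 7214 and 6795). None of the 15 markers of T cells, B cells, fibroblasts and epithelium passed the filter, and the highest count of any of them in a library was 9, for Dcn. In RNA from whole cultures, fewer cells of a kind and less RNA per cell cannot be told apart.

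Levels are given as the deposited FPKM, which allows genes to be compared per length. Their constant per library follows the condition, from 0.943 to 0.951 in the control and from 1.11 to 1.12 with PIC. Whether groups overlap is stated for the deposited values, and where dividing out the constant changed it this is said. Changes are given as the log2 fold change (log2FC) with its standard error from the 3 libraries per condition, and were called with edgeR's quasi-likelihood test at a Benjamini-Hochberg adjusted p (FDR) below 0.05 over all 13691 genes tested.

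In control cells the constitutive subunits were well expressed, with Psma8 the lowest of them. Among the 8 alpha genes the control mean ran from 6.98 FPKM for Psma8, the alpha subunit known from testis, to 166 FPKM for Psma6. The 7 constitutive beta genes lay between 38.2 FPKM (Psmb1) and 164 FPKM (Psmb6), the 6 ATPases of the 19S base between 34.2 FPKM (Psmc2) and 128 FPKM (Psmc1), and the 11 other 19S subunits between 29.9 FPKM (Psmd11) and 141 FPKM (Psmd2). The median of the 4 groups was 58.3 to 73.8 FPKM. The inducible subunits had control means below those of all constitutive subunits other than Psma8, at 23.4 FPKM for Psmb8, 6.17 FPKM for Psmb9 and 26.8 FPKM for Psmb10. The PA28 genes Psme1 and Psme2 stood at 39.4 and 56.4 FPKM. Psmb11, the thymus-specific beta subunit, had 1 count in the 18 libraries together and was not tested.

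Psmb8, which carries the chymotrypsin-like site of the immunoproteasome in place of Psmb5, was at 23.6, 24.6 and 22.1 FPKM in the control libraries, 27.5, 26.3 and 31.8 FPKM with LPS, and 30.1, 33.3 and 30.3 FPKM with PIC. All stimulated libraries lay above all control libraries, and the change was 0.28 ± 0.09 with LPS (FDR 9.26e-05) and 0.40 ± 0.07 with PIC (FDR 1.20e-07). With the constant divided out PIC was nearer to the control, at 27.1, 29.8 and 27.2 against 24.8, 26.0 and 23.4. With TBHQ alone the values were 17.0, 17.2 and 17.9 FPKM, all below the control (log2FC −0.44 ± 0.05, FDR 2.53e-07). LPS + TBHQ gave 18.3, 17.6 and 18.3 FPKM and PIC + TBHQ 22.6, 21.1 and 22.3 FPKM. Neither group overlapped with its stimulus alone, and the change was −0.66 ± 0.08 after LPS (FDR 1.65e-11) and −0.49 ± 0.06 after PIC (FDR 8.85e-09). The LPS + TBHQ libraries were also below every control library, and those of PIC + TBHQ overlapped with the control. With the constant divided out PIC + TBHQ was at 21.4, 20.1 and 21.2, also below every control library.

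Psmb9, the counterpart of Psmb6, had the lowest level of the inducible genes. It was at 5.68, 6.82 and 6.01 FPKM in the control, 6.08, 6.28 and 7.03 FPKM with LPS and 7.39, 8.36 and 6.94 FPKM with PIC. The LPS libraries overlapped with the control and the gene was not called (0.06 ± 0.10, FDR 0.675, and −0.03 when libraries were scaled by their totals), whereas the PIC libraries lay just above it (0.27 ± 0.11, FDR 0.0184). With the constant divided out PIC was at 6.64, 7.49 and 6.23 and overlapped with the control (5.97, 7.22 and 6.38). That PIC call was lost without control replicate 1 (0.22), control replicate 3 (0.25) or PIC replicate 2 (0.21), and with scaling by library totals (0.05). TBHQ alone gave 2.79, 3.64 and 4.10 FPKM, LPS + TBHQ 3.32, 3.14 and 3.61 FPKM, and PIC + TBHQ 4.46, 4.52 and 5.13 FPKM. All 9 libraries with TBHQ lay below all 9 without it, as was also so for the constitutive ATPase gene Psmc6 at smaller changes (−0.15 ± 0.04, −0.21 ± 0.04 and −0.22 ± 0.02). With the constant divided out the same held for Psmb8. For Psmb9 the log2FC was −0.82 ± 0.18 for TBHQ alone (FDR 2.14e-07), −0.95 ± 0.09 after LPS (FDR 1.31e-08) and −0.67 ± 0.10 after PIC (FDR 3.17e-06), the lowest value of the 45 tested members in each of these 3 comparisons.

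Psmb10, the counterpart of Psmb7, was at 28.1, 27.6 and 24.6 FPKM in the control, 38.6, 37.6 and 41.6 FPKM with LPS and 44.3, 47.7 and 45.1 FPKM with PIC. LPS and PIC lay above the control and PIC above LPS, the latter 2 overlapping with the constant divided out, and the changes were 0.55 ± 0.07 for LPS (FDR 4.19e-10) and 0.76 ± 0.07 for PIC (FDR 4.38e-14). TBHQ alone gave 22.4, 22.9 and 24.4 FPKM, close below the control (−0.21 ± 0.07, FDR 0.00789), a call that was lost without control replicate 1 (−0.17, FDR 0.0568). With LPS + TBHQ the libraries were at 24.6, 22.2 and 22.8 FPKM, and with PIC + TBHQ at 34.8, 36.4 and 34.5 FPKM. The former lay within or below the range of the control (all below with the constant divided out) and the latter above every control library. The change was −0.76 ± 0.06 after LPS (FDR 6.57e-13) and −0.37 ± 0.04 after PIC (FDR 2.12e-06). The difference between these changes was itself tested and was 0.39 ± 0.07 (FDR 0.00334).

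Psme1, the alpha subunit of the PA28 ring, followed the same order. It was at 40.1, 40.0 and 38.3 FPKM in the control, 51.2, 48.0 and 49.5 FPKM with LPS, and 59.4, 62.3 and 53.6 FPKM with PIC. The groups did not overlap, though PIC and LPS did with the constant divided out (LPS 0.32 ± 0.03, FDR 7.41e-06, and PIC 0.55 ± 0.07, FDR 7.26e-11). TBHQ alone gave 34.6, 34.1 and 31.7 FPKM (−0.24 ± 0.05, FDR 0.00122). LPS + TBHQ gave 31.1, 33.1 and 34.1 FPKM (−0.60 ± 0.05, FDR 1.18e-10) and PIC + TBHQ 46.4, 43.6 and 39.3 FPKM (−0.43 ± 0.09, FDR 9.15e-08). The LPS + TBHQ libraries were all below the control, and the PIC + TBHQ libraries overlapped with it.

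Psme2, the beta subunit of PA28, was at 56.6, 55.3 and 57.3 FPKM in the control, 95.7, 91.2 and 94.3 FPKM with LPS and 105, 110 and 75.3 FPKM with PIC. Both stimuli lay above every control library (LPS 0.73 ± 0.02, FDR 3.62e-07, and PIC 0.76 ± 0.17, FDR 9.73e-08), and 1 PIC library was well below the others. TBHQ alone gave 36.1, 46.8 and 33.6 FPKM (−0.54 ± 0.15, FDR 0.000224), LPS + TBHQ 45.2, 65.7 and 66.4 FPKM (−0.67 ± 0.18, FDR 4.95e-06) and PIC + TBHQ 80.1, 80.3 and 75.6 FPKM. The last group overlapped with PIC alone (−0.28 ± 0.17, FDR 0.0325), and the call was lost without PIC replicate 1 (−0.23), PIC replicate 2 (−0.19), PIC + TBHQ replicate 1 (−0.30) or PIC + TBHQ replicate 3 (−0.26), and in DESeq2 (−0.30), in limma on log2 FPKM (−0.28) and with scaling by library totals (−0.21).

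Psme2 has a near-identical copy among the members, Psme2b, a gene of 837 bases on chromosome 11 (48836181 to 48837017, minus strand), whereas Psme2 lies on chromosome 14 (55824898 to 55828570, minus strand). Of the 50-base words in Psme2b transcripts, 68.7% also occur in Psme2, and 28.3% of those of Psme2 occur in Psme2b, so the split of reads between them is uncertain. In CPM, Psme2 was at 166, 174 and 119 in the PIC libraries and Psme2b at 77.7, 70.4 and 102. The library with the lowest Psme2 had the highest Psme2b, and the sums were 244, 244 and 221. In LPS + TBHQ, Psme2 was at 80.2, 117 and 117 CPM, Psme2b at 70.6, 60.0 and 51.1, and their sum at 151, 177 and 168. The SD within a condition reached 20.3% of the mean for Psme2, 19.7% for Psme2b and 8.03% for the sum. With both counts summed before the fit, a step added after the values were seen, the log2FC was 0.68 for LPS (FDR 1.54e-14), 0.80 for PIC (FDR 8.05e-17), −0.37 for TBHQ alone (FDR 3.05e-07), −0.55 for LPS + TBHQ against LPS (FDR 1.44e-11) and −0.28 for PIC + TBHQ against PIC (FDR 1.19e-05).

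**Figure D1:**
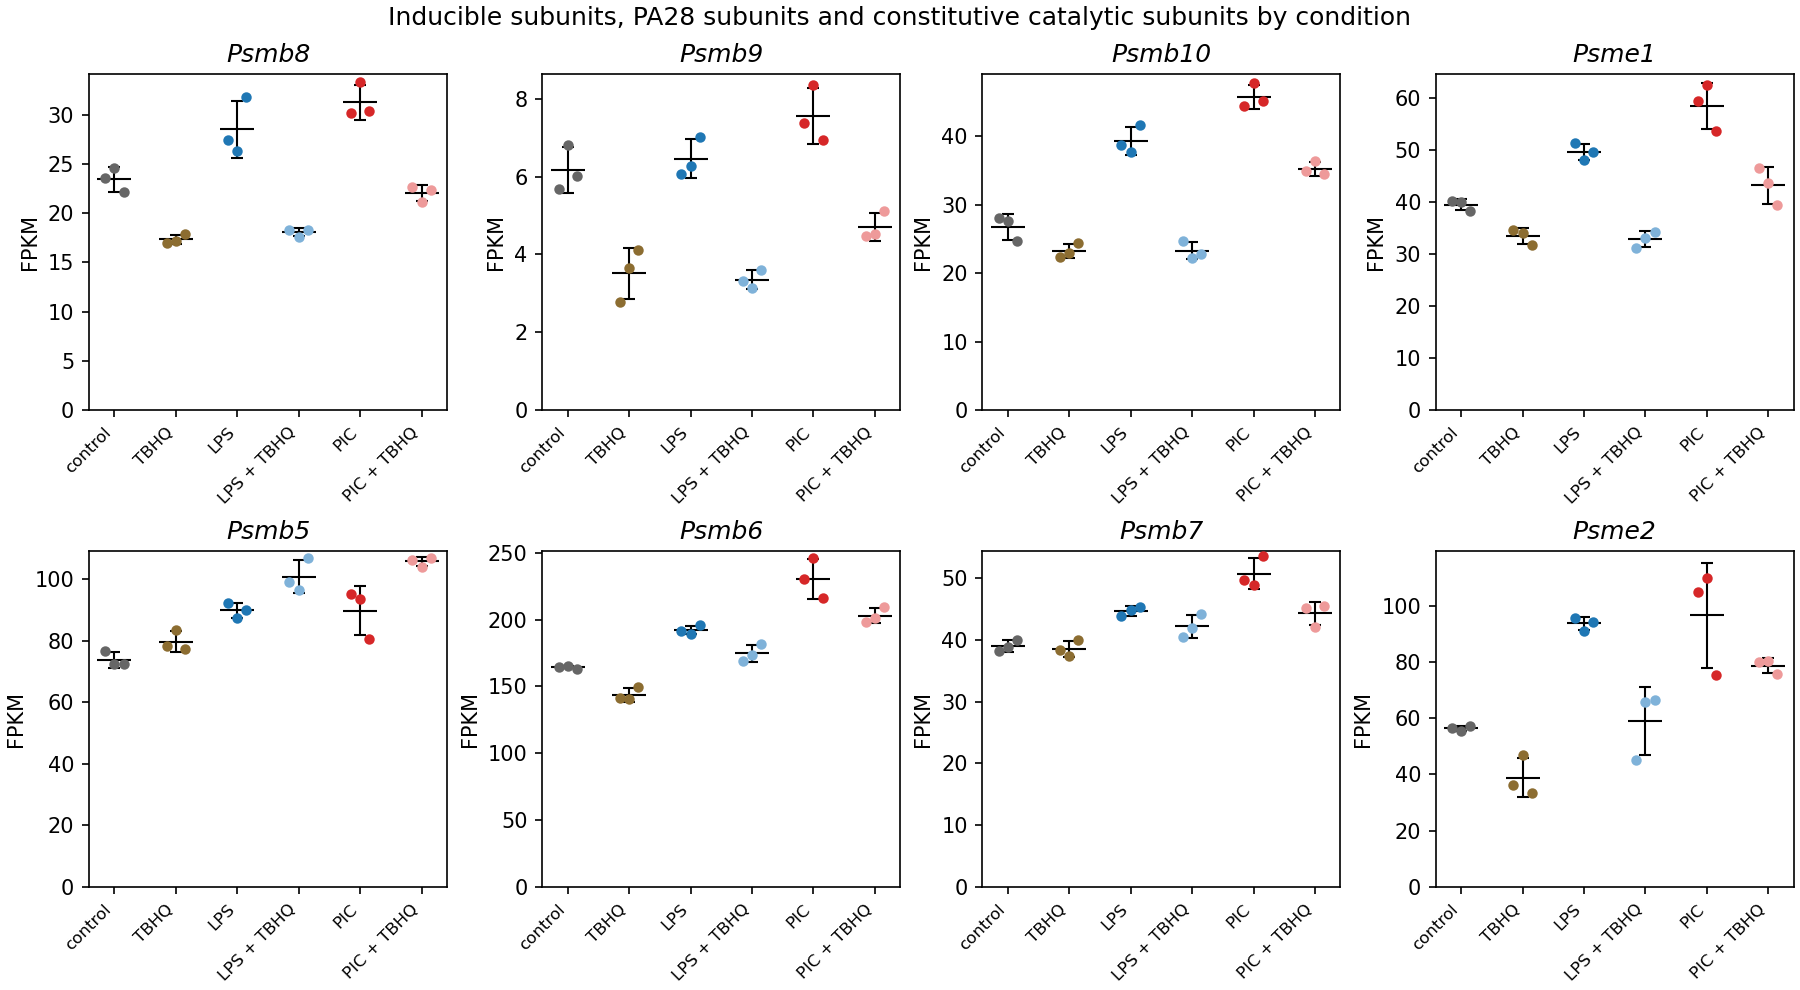
FPKM of the inducible subunits Psmb8, Psmb9 and Psmb10, the PA28 subunits Psme1 and Psme2 and the constitutive catalytic subunits Psmb5, Psmb6 and Psmb7 in each condition. Points are the 3 libraries, the bar is their mean and the whisker 1 SD, with the axis from 0. In the Psmb9 panel all 9 libraries with TBHQ lie below all 9 without it, as they do for Psmc6 (not shown). For Psmb8 they do so only once the constant per library is divided out (not shown). In the Psmb5 panel the highest libraries are those with a stimulus and TBHQ.

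The constitutive catalytic subunits were all called higher with both stimuli and differed among each other with TBHQ. Psmb5, the constitutive chymotrypsin-like subunit, was at 76.7, 72.4 and 72.4 FPKM in the control, 92.2, 87.5 and 89.9 FPKM with LPS and 95.1, 93.6 and 80.7 FPKM with PIC. It rose with LPS (0.28 ± 0.03, FDR 6.40e-05) and with PIC (0.26 ± 0.08, FDR 9.07e-05, although 0.04 and not called with scaling by library totals). With TBHQ alone it was at 78.2, 83.6 and 77.3 FPKM (0.11 ± 0.05, FDR 0.143). It was at 99.2, 96.5 and 107 FPKM in LPS + TBHQ (0.16 ± 0.05, FDR 0.0201) and 106, 104 and 107 FPKM in PIC + TBHQ (0.25 ± 0.08, FDR 0.000314). These libraries were above all libraries with the stimulus alone, which is the opposite side from Psmb8. The call after LPS was lost without LPS replicate 2 (0.15) or LPS + TBHQ replicate 3 (0.12).

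Of the 50-base words of Psmb5, 46.8% also occur in the processed pseudogene Gm3375, which had a mean of 122 CPM in the control against 70.1 CPM for Psmb5, so the count of Psmb5 is uncertain in the same way. With both counts summed the log2FC was 0.22 for LPS (FDR 2.53e-05), 0.28 for PIC (FDR 4.04e-07), 0.15 for TBHQ alone (FDR 0.00498), 0.27 for LPS + TBHQ against LPS (FDR 3.25e-06) and 0.30 for PIC + TBHQ against PIC (FDR 2.20e-07). In all, 9 of the 46 members shared more than 10% of their words with other genes. Besides Psme2, Psme2b and Psmb5 these included Psma5 (49.1%), Psmd2 (17.8%), Psmb3 (17.8%) and Psma3 (15.4%, all with Gm13835), whose counts were not summed with those of a copy and are uncertain to that extent.

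Psmb6, the constitutive caspase-like subunit, was at 165, 165 and 163 FPKM in the control, 191, 189 and 196 FPKM with LPS and 230, 246 and 216 FPKM with PIC (LPS 0.22 ± 0.01, FDR 2.08e-05, and PIC 0.47 ± 0.06, FDR 9.33e-13). With TBHQ it was at 141, 140 and 150 FPKM alone (−0.20 ± 0.03, FDR 0.000192), 169, 174 and 182 FPKM after LPS (−0.14 ± 0.03, FDR 0.00858) and 198, 201 and 209 FPKM after PIC (−0.17 ± 0.06, FDR 0.000689). Each of these groups lay below the group without TBHQ, although PIC + TBHQ and PIC overlapped with the constant divided out, and the call after LPS was lost without LPS + TBHQ replicate 1 (−0.11). Psmb7, the constitutive trypsin-like subunit, was at 38.2, 38.8 and 40.0 FPKM in the control, 43.9, 44.9 and 45.4 FPKM with LPS and 49.7, 48.9 and 53.6 FPKM with PIC. It rose with LPS (0.19 ± 0.02, FDR 0.000431) and PIC (0.36 ± 0.04, FDR 4.71e-09) and was lower in PIC + TBHQ than in PIC (−0.18 ± 0.05, FDR 0.000956). With the constant divided out PIC was nearer to the control, at 44.7, 43.8 and 48.1 against 40.1, 41.0 and 42.4. Psmb7 passed the test neither for TBHQ alone (−0.02 ± 0.03, FDR 0.817) nor for LPS + TBHQ against LPS (−0.08 ± 0.04, FDR 0.165).

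The ratio of each inducible subunit to the one it replaces was taken within each library, so that it does not depend on how libraries are scaled. Psmb8 to Psmb5 was 0.307, 0.340 and 0.305 in the control, 0.298, 0.300 and 0.353 with LPS and 0.317, 0.356 and 0.376 with PIC. These 3 groups overlapped, with a log2 difference from the control of −0.01 ± 0.10 for LPS (exact permutation p = 1) and 0.14 ± 0.09 for PIC (exact p = 0.2). With TBHQ the ratio was 0.218, 0.205 and 0.231 alone, 0.184, 0.182 and 0.171 after LPS and 0.213, 0.203 and 0.209 after PIC. All 9 libraries with TBHQ lay below all 9 without it, and the log2 difference was −0.54 ± 0.07, −0.82 ± 0.09 and −0.74 ± 0.07. Each had an exact two-sided p of 0.1, the smallest that 3 libraries against 3 can give, and an adjusted p of 0.164 over the 18 tests of 3 pairs in 6 comparisons. With the Gm3375 counts added to Psmb5 the LPS difference from the control was 0.05.

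Psmb9 to Psmb6 was 0.0345, 0.0413 and 0.0368 in the control, 0.0318, 0.0332 and 0.0360 with LPS and 0.0321, 0.0340 and 0.0321 with PIC. The LPS libraries overlapped with the control and the PIC libraries lay below it (LPS −0.16 ± 0.09, exact p = 0.2, and PIC −0.19 ± 0.08, exact p = 0.1). TBHQ gave 0.0198, 0.0260 and 0.0274 alone, 0.0196, 0.0181 and 0.0199 after LPS and 0.0225, 0.0225 and 0.0245 after PIC. The log2 differences were −0.63 ± 0.16, −0.81 ± 0.07 and −0.50 ± 0.05, again with no overlap (exact p = 0.1 each).

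Psmb10 to Psmb7 was the pair whose ratio was higher with both stimuli. It was 0.736, 0.711 and 0.615 in the control, 0.881, 0.838 and 0.916 with LPS and 0.893, 0.976 and 0.842 with PIC. Both stimuli lay above the control (0.36 ± 0.09 and 0.40 ± 0.10, exact p = 0.1 each). The ratio was 0.582, 0.612 and 0.611 with TBHQ alone and 0.608, 0.530 and 0.517 in LPS + TBHQ, against 0.770, 0.863 and 0.757 in PIC + TBHQ. The log2 difference was −0.19 ± 0.08 for TBHQ alone (exact p = 0.1) and −0.67 ± 0.08 for LPS + TBHQ against LPS (exact p = 0.1). For PIC + TBHQ against PIC it was −0.18 ± 0.09, with 1 library of PIC + TBHQ inside the range of PIC (exact p = 0.2).

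**Figure D2:**
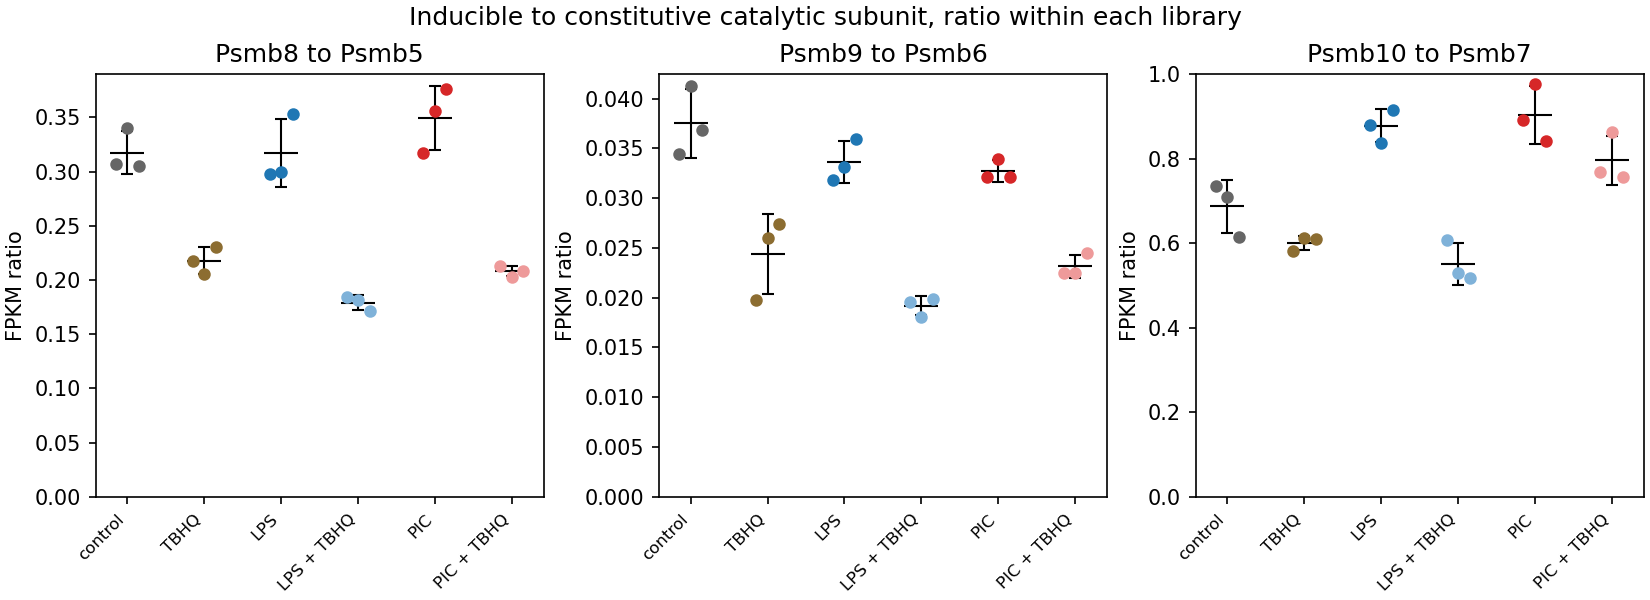
FPKM ratio of Psmb8 to Psmb5, Psmb9 to Psmb6 and Psmb10 to Psmb7 within each library, by condition, with the axis from 0. Points are the 3 libraries, bars the mean and whiskers 1 SD. In the first 2 panels all libraries with TBHQ lie below all without it. In the third the PIC + TBHQ libraries (0.757 to 0.863) lie above the control (0.615 to 0.736), and 1 of them lies within the range of PIC.

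Whether stimulation moved most members upward depended on the scaling. With LPS, 28 of the 45 tested members were called higher and 5 lower, where 24.0% of all genes tested were called higher and 24.1% lower. With PIC, 36 were called higher and 4 lower, against 28.6% and 30.1% of all genes. The median log2FC of the members was 0.14 with LPS and 0.25 with PIC, and that of all genes 0.00 and −0.01. Scaling by library totals shifted the median of all genes by −0.22 for PIC and −0.09 for LPS. On that scale 19 members were called higher and 8 lower with LPS, where 17.9% and 33.3% of all genes were, and 18 higher and 9 lower with PIC, where 17.4% and 48.5% were. The median of the members was 0.06 and 0.03, and with PIC 23 lay above 0 and 22 below. At the study's stricter threshold, an FDR below 0.01 and an absolute log2FC above 2 in edgeR, no member was called, the largest absolute log2FC of any member in any comparison being 0.99, while 1.64% of all genes passed it with LPS and 3.57% with PIC.

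Among the 32 constitutive subunits of the rings and the cap, 20 rose and 2 fell with LPS, and 27 rose and 1 fell with PIC, against the shares of all genes given above, with a median log2FC of 0.13 and 0.21. Psma8, the alpha subunit known from testis, was the 1 that fell with PIC and was among the 2 that fell with LPS. Of the 32, the number that fell with LPS ran from 0 to 2 with 1 library left out. With scaling by library totals 12 were called higher and 5 lower with LPS, and with PIC 11 higher and 6 lower with a median of −0.01, 15 lying above 0 and 17 below. The median of the 5 inducible and PA28 genes was 0.32 with LPS and 0.55 with PIC, and 0.23 and 0.33 with scaling by library totals. Of these 5, 4 were called higher with LPS and 5 with PIC, and 4 and 4 on that scale. By role, 3 of 8 alpha genes, 4 of 7 constitutive beta genes, 5 of 6 base ATPases and 8 of 11 other 19S subunits rose with LPS. With PIC the counts were 7 of 8, 5 of 7, 5 of 6 and 10 of 11. Of all genes 24.0% rose with LPS and 28.6% with PIC. With library totals the counts by role became 2, 3, 2 and 5 with LPS and 2, 2, 2 and 5 with PIC. On that scale 17.9% and 17.4% of all genes were called higher.

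Psme2b rose by 0.58 ± 0.09 with LPS (FDR 9.43e-06) and 0.88 ± 0.17 with PIC (FDR 1.39e-09). Outside Psme2b and the 5 inducible and PA28 genes, the largest rise was that of Psmd11, a scaffold subunit of the 19S lid. It was at 30.1, 30.0 and 29.5 FPKM in the control, 50.1, 46.6 and 50.3 FPKM with LPS and 56.1, 56.1 and 53.4 FPKM with PIC. Both stimuli were far above the control (LPS 0.71 ± 0.04, FDR 1.82e-18, and PIC 0.87 ± 0.03, FDR 1.93e-21). TBHQ alone also raised it, to 36.7, 35.6 and 35.6 FPKM (0.27 ± 0.02, FDR 4.12e-07). Psma6, an alpha subunit, was at 171, 162 and 164 FPKM in the control, 227, 238 and 232 FPKM with LPS and 258, 256 and 259 FPKM with PIC (LPS 0.48 ± 0.03, FDR 5.57e-14). It was at 176, 181 and 183 FPKM in LPS + TBHQ (−0.37 ± 0.03, FDR 1.88e-10) and 202, 201 and 202 FPKM in PIC + TBHQ (−0.34 ± 0.01, FDR 7.91e-10), below every library of the stimulus alone. Psmd10 (gankyrin), a chaperone that helps assemble the 19S base, rose from 43.4, 42.2 and 40.2 FPKM to 71.0, 70.0 and 71.3 FPKM with PIC (0.74 ± 0.03, FDR 1.80e-14).

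The lowest members with both stimuli were Psmc3ip, Psmd9 and Psma8. Psmc3ip, a recombination factor named after its binding to Psmc3 and no subunit of the proteasome, was at 9.96, 9.32 and 9.80 FPKM in the control, 6.97, 7.16 and 7.85 FPKM with LPS and 5.16, 4.20 and 5.36 FPKM with PIC. The groups did not overlap (LPS −0.41 ± 0.06, FDR 0.000899, and PIC −0.99 ± 0.11, FDR 4.24e-10). Its interval overlaps that of Mlx on the opposite strand by 385 bases. Psmd9, another base chaperone, fell with LPS (−0.30 ± 0.05, FDR 0.000606) and PIC (−0.27 ± 0.07, FDR 0.00149). Psma8 fell with PIC (−0.38 ± 0.10, FDR 0.00178) and with LPS (−0.27 ± 0.08, FDR 0.0293), the latter lost without control replicate 2 (−0.25), control replicate 3 (−0.23), LPS replicate 2 (−0.23) or LPS replicate 3 (−0.22) and in DESeq2 (−0.26). Leaving out control replicate 2 or LPS replicate 2 lowered the count of members called lower with LPS from 5 to 3. Of the other activators, named after their values were seen, Psme3, which forms the nuclear PA28 gamma ring, was lower with LPS (−0.21 ± 0.05) and PIC (−0.18 ± 0.05), and Psme4, the PA200 activator, was higher (0.17 ± 0.05 and 0.19 ± 0.04). With library totals Psme4 was at 0.08 and −0.02 and not called. Psme3ip1, a partner of Psme3 and no subunit, was called in no comparison and lay between 10.9 and 14.1 FPKM.

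**Figure D3:**
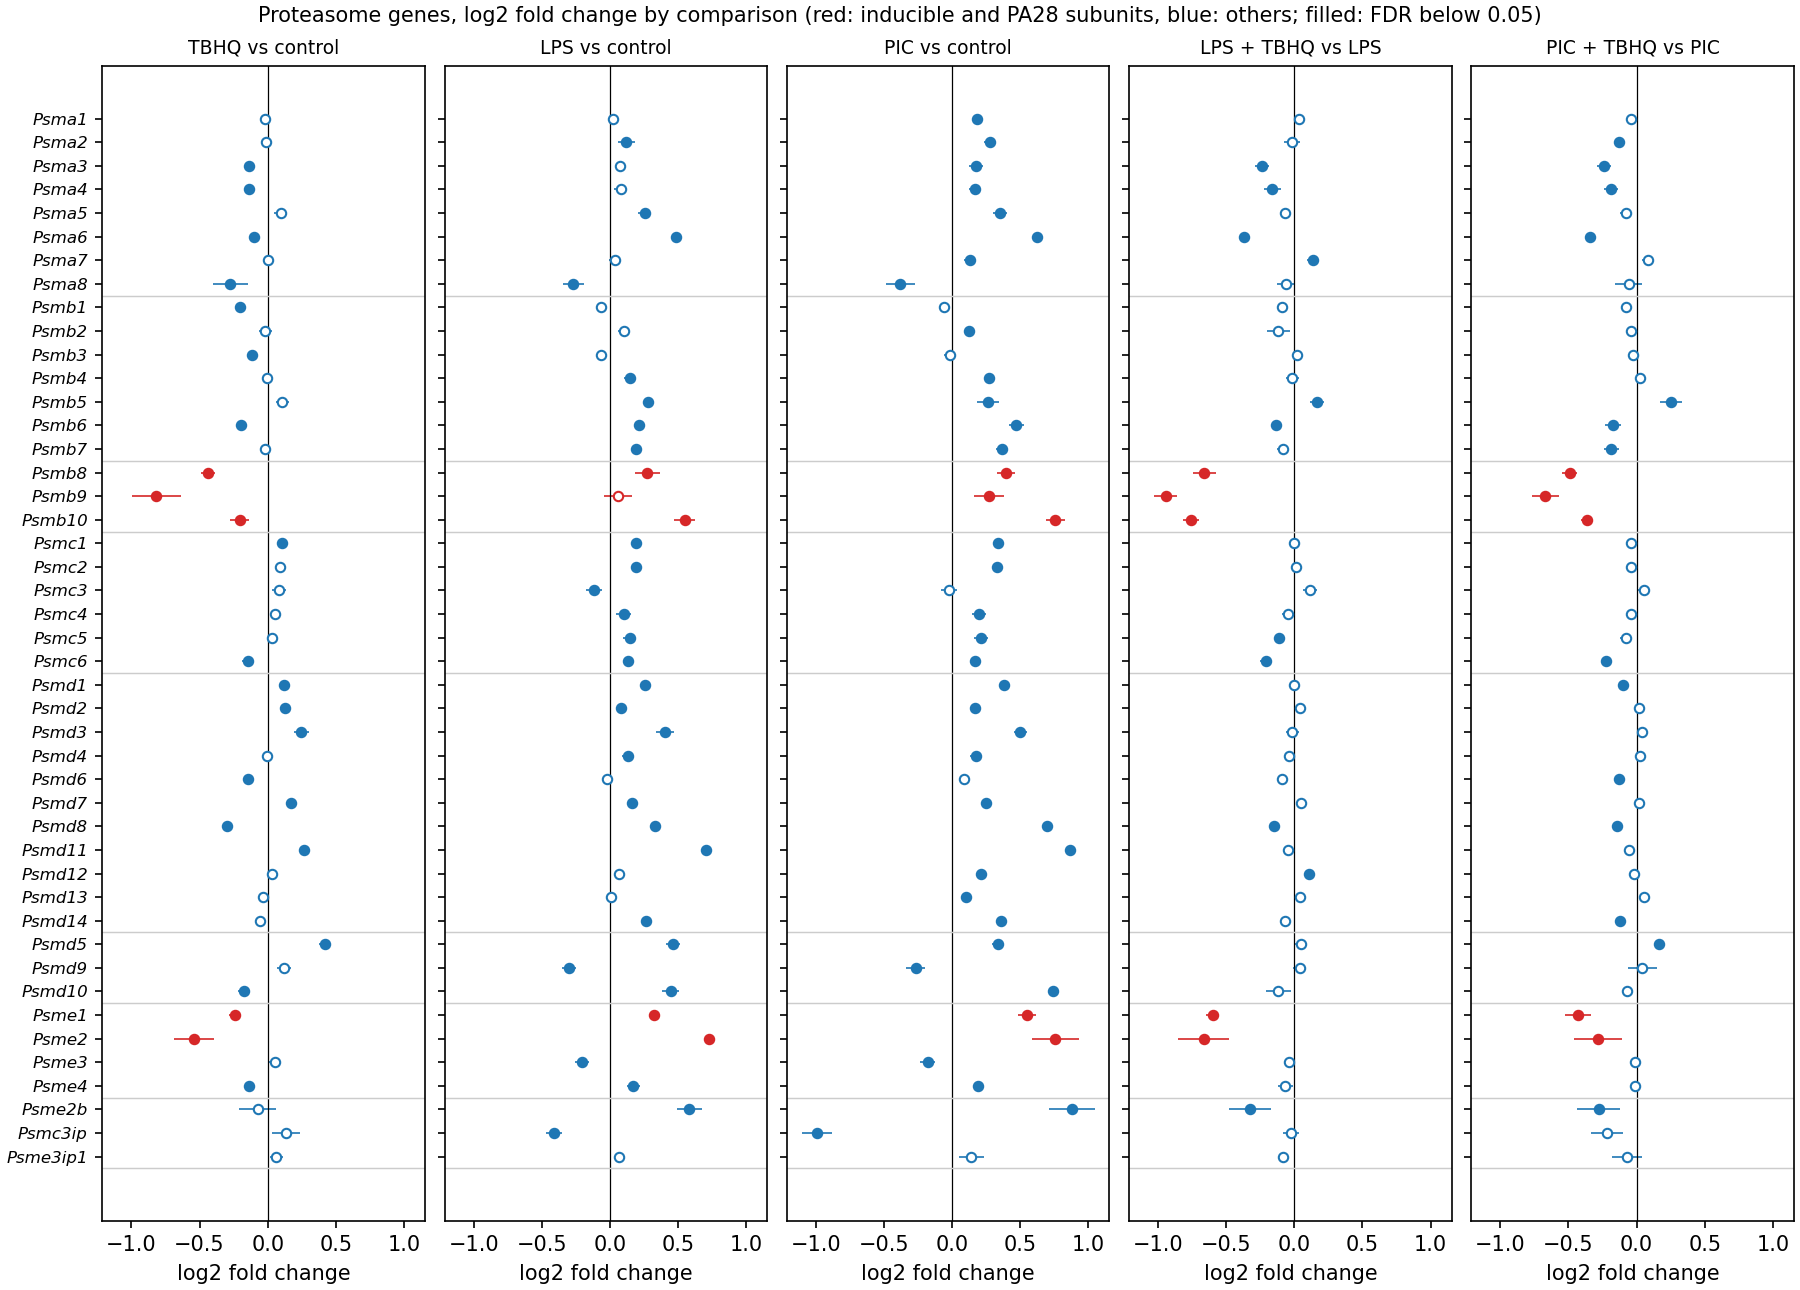
Log2 fold change of the 45 tested members in 5 comparisons, grouped by role from the alpha ring at the top to genes that are no subunit at the bottom. Whiskers are 1 standard error, filled points have an FDR below 0.05, and the 5 inducible and PA28 genes are red. These 5 lie left of 0 in the 3 comparisons with TBHQ, where Psmb9 is the lowest point at −0.82, −0.95 and −0.67.

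TBHQ alone gave 7 members called higher and 17 lower, where 14.2% of all genes were called higher and 14.8% lower. All 5 inducible and PA28 genes were among those called lower, with a median of −0.44. Of the 32 constitutive subunits, 6 were called higher and 10 lower, with a median of −0.01. With 1 library left out these counts ran from 5 to 7 higher and from 6 to 10 lower. Of the 17 subunits of the 19S particle 6 rose and 3 fell, and of the 15 genes of the alpha and constitutive beta rings 7 fell. The number of ring genes that fell ran from 3 to 7 with 1 library left out. Of the ring genes Psmb5 was called higher with Gm3375 summed (0.15), and the difference between the 19S and ring genes was not tested. Psmd5, a base chaperone, rose most (0.42 ± 0.04, FDR 5.91e-09), from 9.88, 10.5 and 9.63 FPKM to 13.2, 13.2 and 13.7 FPKM, followed by Psmd11 and by Psmd3, a lid subunit (0.25 ± 0.05, FDR 2.68e-05). Psmd8, a lid subunit, fell from 113, 107 and 108 FPKM to 88.0, 87.9 and 90.9 FPKM (−0.30 ± 0.03, FDR 1.17e-08) and Psmb1, a structural beta subunit, also fell (−0.20 ± 0.03, FDR 0.000140). Psma8 was called lower (−0.27 ± 0.13, FDR 0.0369) with overlapping groups. That call was lost in DESeq2 (−0.27), with no filter on counts (−0.28) and without control replicate 2 (−0.26), control replicate 3 (−0.24), TBHQ replicate 1 (−0.17) or TBHQ replicate 3 (−0.28). At the stricter threshold no member passed, where 0.190% of all genes did.

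Adding TBHQ before LPS gave 3 members called higher and 13 lower than LPS alone, where 11.7% of all genes were higher and 12.2% lower. The 5 inducible and PA28 genes were all lower, with a median of −0.67 against −0.04 for the 32 constitutive subunits, of which 3 were higher and 7 lower. The members called higher were Psmb5, the alpha subunit Psma7 (0.14 ± 0.05, FDR 0.0136) and the lid subunit Psmd12 (0.11 ± 0.03, FDR 0.0321). Psma7 was not called without LPS replicate 1 (0.13), LPS replicate 2 (0.11) or LPS + TBHQ replicate 3 (0.11), and Psmd12 not without LPS replicate 1 (0.09), LPS replicate 2 (0.11), LPS + TBHQ replicate 2 (0.10) or LPS + TBHQ replicate 3 (0.11), nor in a fit of the 2 compared conditions only (0.10). The count of 3 became 1 without LPS replicate 1 and 0 without LPS replicate 2 or LPS + TBHQ replicate 3. Below the inducible genes, Psma6, Psme2b (−0.33 ± 0.15, FDR 0.0137) and the alpha subunit Psma3 (−0.24 ± 0.05, FDR 9.21e-05) were lowest. The call of Psme2b was lost without LPS replicate 2 (−0.27) or LPS + TBHQ replicate 3 (−0.22), in DESeq2 (−0.32) and in limma (−0.33). No member passed the stricter threshold, where 0.387% of all genes did.

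Adding TBHQ before PIC gave 2 members called higher and 17 lower, where 15.8% and 15.5% of all genes were called. With scaling by library totals, 9 were higher and 10 lower, where 24.8% and 10.5% of all genes were. The 5 inducible and PA28 genes were all called lower with a median of −0.43. With scaling by library totals the median was −0.36 and Psme2 was not called (−0.21). The 32 constitutive subunits had a median of −0.05 with 1 higher and 11 lower, and of 0.02 with 8 higher and 6 lower with scaling by library totals. The 2 members called higher were Psmb5 and Psmd5 (0.16 ± 0.04, FDR 0.00492), the latter not without PIC replicate 2 (0.13) or PIC + TBHQ replicate 2 (0.13), which left 1. Psma6, Psme2b (−0.28 ± 0.16, FDR 0.0255) and Psma3 (−0.24 ± 0.05, FDR 6.34e-05) were again the lowest of the others. Psme2b was not called without PIC replicate 3 (−0.12), PIC + TBHQ replicate 1 (−0.28) or PIC + TBHQ replicate 3 (−0.27), nor in DESeq2 (−0.28), in limma (−0.26) or with library totals (−0.21). No member passed the stricter threshold, where 0.299% of all genes did. LPS, PIC and TBHQ share their control libraries, and LPS + TBHQ and PIC + TBHQ are each compared with a stimulus group that was itself compared with the control, so these comparisons are not independent of each other.

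Set directly against LPS, PIC gave 18 members called higher and 2 lower, where 14.9% and 12.8% of all genes were called. The direction of this split turned with the scaling, since with library totals 3 were higher and 7 lower, where 7.19% and 31.9% of all genes were, and the median of all genes moved by −0.13. Among the 5 inducible and PA28 genes, Psmb10 (0.21 ± 0.05, FDR 0.00352) and Psme1 (0.23 ± 0.07, FDR 0.00148) were called higher, at 0.08 and 0.10 and not called on the other scale. Psmb8 (0.12 ± 0.09, FDR 0.0974), Psmb9 (0.21 ± 0.10, FDR 0.114) and Psme2 (0.03 ± 0.17, FDR 0.859) were not called. Without LPS replicate 3 Psmb8 was called (0.21, FDR 0.00342). Psmb6 (0.25 ± 0.06, FDR 3.83e-06) and Psmb7 (0.17 ± 0.04, FDR 0.00223) were higher with PIC, and Psmb5 was not called (−0.01 ± 0.08, FDR 0.878). With library totals Psmb7 was at 0.04 and not called, and Psmb5 was called lower (−0.14). The other members with the highest values were Psmd8 (0.36 ± 0.03, FDR 8.65e-11), Psme2b (0.30 ± 0.17, FDR 0.0187, with overlapping groups) and Psmd10 (0.29 ± 0.05, FDR 3.52e-05). Psme2b was not called without LPS replicate 1 (0.23) or PIC replicate 3 (0.12), nor in DESeq2 (0.30), in limma (0.28) or with library totals (0.17). Psmc3ip (−0.58 ± 0.12, FDR 0.000104) and Psmd5 (−0.13 ± 0.04, FDR 0.0321) were lower. Psmd5 was not called without LPS replicate 1 (−0.13), LPS replicate 2 (−0.10), PIC replicate 1 (−0.13) or PIC replicate 2 (−0.11), and without any of these 4 libraries the count was 1. It was also not called in DESeq2 (−0.12), in limma (−0.11), in a fit of the compared conditions only (−0.13), with no filter (−0.13) or with RLE size factors (−0.12). No member passed the stricter threshold, where 0.307% of all genes did.

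Whether the change with TBHQ differed between the stimuli was tested as the difference of the log2 fold changes, PIC + TBHQ against PIC minus LPS + TBHQ against LPS. Psmb10 was the 1 member called with a positive difference, where 0.825% of all genes were. No member was called with a negative one in edgeR or in DESeq2 (0 in each), where 1.01% of all genes were in edgeR, and 6 of 45 members had an unadjusted p below 0.05 in either direction, where 14.2% of all genes had. The differences of the other inducible and PA28 genes were 0.17 ± 0.10 for Psmb8 (FDR 0.331), 0.28 ± 0.13 for Psmb9 (FDR 0.411), 0.17 ± 0.11 for Psme1 (FDR 0.307) and 0.38 ± 0.25 for Psme2 (FDR 0.191). With Psme2 and Psme2b summed it was 0.27 (FDR 0.0233). The constitutive catalytic subunits gave 0.09 ± 0.09 for Psmb5 (FDR 0.664), −0.04 ± 0.07 for Psmb6 (FDR 0.844) and −0.10 ± 0.07 for Psmb7 (FDR 0.493).

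Other genes of the pathway were taken from a list of 22 partners, of which 21 names matched and all 21 were tested. The list holds assembly chaperones, ubiquitin receptors and deubiquitinases, ubiquitin genes and regulators of proteasome transcription. With LPS 10 of the 21 rose and 6 fell (against 24.0% and 24.1% of all genes), and with PIC 11 rose and 7 fell (against 28.6% and 30.1% of all genes). With library totals 6 were higher and 6 lower with LPS (against 17.9% and 33.3% of all genes on that scale). With PIC 6 were then higher and 10 lower (against 17.4% and 48.5%). Zfand5, a proteasome-binding zinc finger protein, was at 11.6, 11.1 and 11.4 FPKM in the control, 16.9, 17.0 and 18.1 FPKM with LPS and 34.5, 34.9 and 33.4 FPKM with PIC. Both stimuli were well apart from the control (0.60 ± 0.04 and 1.57 ± 0.03), and PIC also differed from LPS (0.97 ± 0.04, FDR 8.51e-21). The 20S assembly chaperones Psmg1 (−0.28 ± 0.05 and −0.54 ± 0.07) and Psmg3 (−0.46 ± 0.14 and −0.59 ± 0.05) fell with LPS and with PIC, whereas Pomp, another of these chaperones, rose with both (0.13 ± 0.04, FDR 0.00907, and 0.29 ± 0.05, FDR 2.28e-07). Pomp was named after its values were seen, and it was not called with library totals (0.05 and 0.07) nor, with LPS, without control replicate 3 (0.11). Lower with both stimuli were also the deubiquitinase Uchl5 (−0.31 ± 0.07 and −0.29 ± 0.04) and the protease Ddi2 (−0.27 ± 0.05 and −0.47 ± 0.05).

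With TBHQ alone 3 of the 21 partners rose and 4 fell (against 14.2% and 14.8% of all genes). Adrm1, a ubiquitin receptor of the 19S cap, rose from 22.8, 24.2 and 23.7 FPKM to 29.5, 30.6 and 31.4 FPKM (0.37 ± 0.03, FDR 1.57e-07), and the ubiquitin gene Ubb fell (−0.45 ± 0.04, FDR 5.28e-11). In LPS + TBHQ against LPS 2 rose and 7 fell (against 11.7% and 12.2% of all genes). In PIC + TBHQ against PIC 4 rose and 6 fell (against 15.8% and 15.5% of all genes). These last counts were 6 and 3 with library totals (against 24.8% and 10.5% of all genes on that scale). With 1 library left out the number that rose ran from 0 to 2 after LPS and from 1 to 5 after PIC. Adrm1 was among those that rose in each (0.19 ± 0.08, FDR 0.00270, and 0.14 ± 0.04, FDR 0.0175). The first of these calls was lost without LPS replicate 2 (0.13) and the second without PIC replicate 1 (0.10), PIC replicate 2 (0.13), PIC + TBHQ replicate 2 (0.13) or PIC + TBHQ replicate 3 (0.12) and in limma (0.13). Of the other risers, Ddi2 after LPS (0.15, FDR 0.0480) was not called in DESeq2 (0.15), in limma (0.13), in a fit of the compared conditions only (0.15) or without LPS replicate 2 (0.13), among other libraries. Psmg3 after PIC (0.29, FDR 0.0490) was not called in DESeq2 (0.28), in limma (0.22) or without PIC replicate 3 (0.27), among other settings, and Psmg1 (0.25) not without PIC replicate 3 (0.16).

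The neighbours of the immunoproteasome in class I presentation were a list of 7 genes, all tested. With LPS 6 rose (against 24.0% of all genes), with PIC 7 rose (28.6%), with TBHQ alone 6 fell (14.8%), in LPS + TBHQ against LPS 7 fell (12.2%) and in PIC + TBHQ against PIC 5 fell (15.5%), and none moved the other way in edgeR at an FDR below 0.05. With library totals the counts were 6, 6, 6, 6 and 5, against 17.9%, 17.4%, 15.1%, 10.2% and 10.5% of all genes on that scale. Tap1, which carries peptides into the endoplasmic reticulum, was at 9.93, 10.2 and 9.39 FPKM in the control, 14.7, 13.9 and 15.3 FPKM with LPS and 16.8, 17.4 and 16.9 FPKM with PIC. It was at 6.21, 7.01 and 6.99 FPKM with TBHQ alone, 7.76, 8.26 and 9.13 FPKM in LPS + TBHQ and 11.3, 11.3 and 11.9 FPKM in PIC + TBHQ. The LPS + TBHQ libraries were below the control and the PIC + TBHQ libraries above it, the latter overlapping with it once the constant was divided out. The log2FC was 0.57 ± 0.05 for LPS, 0.77 ± 0.04 for PIC, −0.55 ± 0.07 for TBHQ alone (FDR 4.84e-09), −0.81 ± 0.08 after LPS (FDR 7.94e-14) and −0.55 ± 0.03 after PIC (FDR 4.31e-10). Tapbp (tapasin), which loads peptide onto class I molecules, was at 65.3, 65.9 and 65.4 FPKM in LPS + TBHQ and 96.7, 97.7 and 97.1 FPKM in PIC + TBHQ, against 99.7, 96.0 and 107 FPKM with LPS and 122, 122 and 125 FPKM with PIC. Its difference between the stimuli was called (0.29 ± 0.04, FDR 0.000724). B2m, the class I light chain, was lower in PIC + TBHQ than in PIC (−0.48 ± 0.05, FDR 1.45e-13).

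Of 10406 genes outside the rule with a mean of at least 50 counts, the 5 whose log2 CPM followed the mean of Psmb8, Psmb9 and Psmb10 most closely over the 18 libraries were Phf11d (Pearson r 0.971), Cycs (0.967), Mov10 (0.966), Ifi44 (0.965) and Igtp (0.965). The libraries fall into 6 conditions, so r is a description only and was not tested.

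Psmb8, Psmb9, Tap1 and Tap2 sit side by side on chromosome 17, where the files list Psmb9 at 34400961 to 34406738 on the minus strand, Tap1 at 34406527 to 34416199, Psmb8 at 34416695 to 34420428 and Tap2 at 34422501 to 34435295, all on the plus strand. Psme1 (55815580 to 55818986, plus strand) and Psme2 lie close to each other on chromosome 14, and Psmb5 is on the same chromosome (54851576 to 54855479, minus strand) next to Psmb11. Psmb10 is on chromosome 8 (106662367 to 106665076, minus strand), Psmb6 on chromosome 11 (70416193 to 70418684, plus strand) and Psmb7 on chromosome 2 (38478048 to 38534099, minus strand). The listed intervals of Psmb9 and Tap1 overlap by 212 bases on opposite strands and that of Psmb7 overlaps Nek6, and whether the counting used the strand is not given in the sources used here. Positions are as the files list them, where the sources name both GRCm38 and mm39, and the start of each of the 46 members differs from that in a GRCm38 annotation (GENCODE M21).

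Promoter windows from RefSeq on GRCm38.p6, from 250 bases before to 50 after the start, were matched by symbol for 39 of the 46 members, with 43 windows. Searched on both strands were GAAA followed by any 2 bases and GAAA (core of the interferon-stimulated response element), TTC, any 3 bases and GAA (the gamma-activated site), TGAC, any 3 bases and GC (core of the antioxidant response element) and CCAAT. The first was found in 3.44% of all 32851 windows and in those of Psmb3, Psmd4, Psmd9 and Psme1, in the last of these 10 bases past the start. The second was found in 8.30% of all windows and in those of Psmb8 and Psmd2. The third was found in 12.4% of all windows and in those of 6 members, Psmb5, Psmb6, Psmc6, Psmd9, Psmd12 and Psme4, and CCAAT in 37.4% of all windows and in those of 16 members. None of the first 3 motifs was found in the windows of Psmb9, Psmb10 and Psme2, which says only that these letters are not there.

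Bases before the start are shown for Psmb8 and Psmb9, the inducible genes with the gamma-activated letters and with the Tap1 start at the other end. They are also shown for Psmb5 and Psmb6, the constitutive catalytic genes with the antioxidant letters. These 2 genes had opposite changes with TBHQ after either stimulus, while Psmb5 was not called with TBHQ alone. Each stretch is written 5′ to 3′ on the gene's strand with the motif matches in capitals. The Psmb8 stretch is chr17:34198045-34198194 on the plus strand and holds TTCCCAGAA. The Psmb9 stretch is chr17:34187331-34187555 on the minus strand, the 225 bases between the starts of Psmb9 and Tap1, and its capitals are CCAAT read on the other strand. The Psmb5 stretch is chr14:54617996-54618145 on the minus strand and the Psmb6 stretch chr11:70525207-70525356 on the plus strand.
Psmb8: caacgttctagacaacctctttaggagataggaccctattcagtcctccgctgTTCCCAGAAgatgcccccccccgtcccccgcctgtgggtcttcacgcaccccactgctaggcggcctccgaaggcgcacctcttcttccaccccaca
Psmb9: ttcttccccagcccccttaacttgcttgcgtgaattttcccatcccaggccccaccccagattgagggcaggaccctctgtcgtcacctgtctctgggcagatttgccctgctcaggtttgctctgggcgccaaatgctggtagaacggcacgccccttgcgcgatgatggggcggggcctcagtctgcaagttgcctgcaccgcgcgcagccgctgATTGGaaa
Psmb5: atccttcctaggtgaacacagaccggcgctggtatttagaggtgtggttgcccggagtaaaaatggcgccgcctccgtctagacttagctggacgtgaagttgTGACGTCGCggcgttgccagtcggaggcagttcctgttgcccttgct
Psmb6: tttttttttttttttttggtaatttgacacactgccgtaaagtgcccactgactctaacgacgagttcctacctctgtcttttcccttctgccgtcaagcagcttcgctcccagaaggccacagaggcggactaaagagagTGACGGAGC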

How the data were processed

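RNA-seq of 18 libraries was used, 3 per condition. Gene counts were deposited by the authors as raw whole numbers, after alignment with HISAT2 2.0.5, assembly with StringTie 1.3.3b and counting with featureCounts 1.5.0-p3. FPKM were deposited by the authors as well, and each value equals the count divided by gene length and library total, times a constant per library between 0.943 and 1.12. Overlap of groups was also read with this constant divided out, which was added after seeing the data. Gene length was taken as deposited by the authors. Positions were taken from the same files. The tests used raw counts in edgeR 4.0.16 under R 4.3.3 (filterByExpr, TMM, quasi-likelihood fit over all 18 libraries, 1 coefficient per condition, Benjamini-Hochberg over 13691 genes, FDR below 0.05), and the scripts were tested on simulated data. Standard errors came from log2 CPM of the replicates with a prior count of 2. Ratios of FPKM within a library were compared by exact permutation. Alternatives were DESeq2 1.42.0, limma 3.58.1 on log2(FPKM + 1), the compared conditions only, RLE factors, library totals, no filter, a mean of at least 50 counts, a block for the replicate number, FDR below 0.01 alone or with an absolute log2FC above 2, and leaving out each library. Summing the counts of near-identical copies was added after seeing the data. Named in every comparison were Psmb8, Psmb9, Psmb10, Psme1, Psme2, Psmb5, Psmb6 and Psmb7, and per comparison up to 3 other called members, and up to 3 called genes of the lists, with the highest and the lowest log2FC at a mean of at least 50 counts. The members and lists were chosen with earlier results of these data known. Shared words of 50 bases, promoter windows and motifs were read with Python 3.11.15, numpy 2.4.6, pandas 2.3.3 and scipy 1.17.1, and figures drawn with matplotlib 3.10.9.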

Additional observations from a re-analysis of the deposited data

Results flagged for a closer look

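Among the tested members, partners and class I neighbours, the change with TBHQ differed between the stimuli in 3 genes in edgeR's test of the difference, taken as the log2 fold change after PIC minus that after LPS. Of all 13691 genes tested, 113 (0.825%) were called with a positive difference and 138 (1.01%) with a negative one. The difference was 0.39 for Psmb10, 0.29 for Tapbp and −0.21 for Zfand5. That of Psmb10 kept its sign and its call in every alternative other than the threshold on the size of the change. That of Zfand5 was lost without LPS replicate 1 (−0.19), LPS + TBHQ replicate 1 (−0.20), LPS + TBHQ replicate 2 (−0.22), LPS + TBHQ replicate 3 (−0.21) or PIC + TBHQ replicate 2 (−0.18), and with scaling by library totals (−0.17). The cause was not tested.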

How the results depend on the processing

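Counts of members called changed as follows, and the cause was not tested. Scaling by library totals gave 8 members called lower with LPS. With PIC it gave 18 higher, 9 lower. For PIC + TBHQ against PIC it gave 9 higher, 10 lower, and for PIC against LPS 3 higher, 7 lower. DESeq2 gave 3 lower with LPS, and 1 lower for PIC against LPS. That last count was also 1 with the compared conditions only, RLE factors, no filter, limma and an FDR below 0.01. An FDR below 0.01 gave 10 lower with TBHQ alone, 3 lower with LPS, 0 higher for LPS + TBHQ against LPS and 11 lower for PIC + TBHQ against PIC. With a limit on the absolute log2FC of 2 added, all counts were 0 in edgeR. Without the filter 2 members were higher in the difference of the changes. With 1 library left out, the count lower with LPS ran from 3 to 5, higher for LPS + TBHQ against LPS from 0 to 4, higher for PIC + TBHQ against PIC from 1 to 2, and lower for PIC against LPS from 1 to 2. Values that changed sign were the following. With library totals, Psmb9 with LPS was −0.0305 and Psme4 with PIC −0.0241. On that scale Psmb8 was −0.00666 and Psme2 −0.0986 for PIC against LPS, while Psmb6 was 0.00915 in the difference of the changes. With copies summed, Psmb5 for PIC against LPS was 0.0546, and the log2 ratio of Psmb8 to Psmb5 with LPS 0.0483. With 1 library left out, Psmb7 with TBHQ alone ran from −0.0420 to 0.00348, Psme2 for PIC against LPS from −0.0684 to 0.191, Psmb5 for PIC against LPS from −0.0547 to 0.0643, and Psmb5 in the difference of the changes from −0.00368 to 0.132. The log2 ratio of Psmb8 to Psmb5 with LPS ran from −0.0855 to 0.0456, Psmb9 to Psmb6 for PIC against LPS from −0.0774 to 0.0114, and Psmb10 to Psmb7 for PIC against LPS from −0.0176 to 0.0892. Replicate numbers were not taken to pair libraries, since not every pair at the same number had an r of deviations above 0.1 (median 0.026, from −0.072 to 0.142 over 45 pairs, against a median of −0.011 at other numbers), although 11 of 18 libraries were closest to their own number. A block for them gave 27 members higher with LPS in place of 28 and left the other counts as they were. Of the values of single genes, 2164 with 1 library left out and 969 in other settings kept their direction and call.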
